A study of Mus musculus with 17 samples.

Results

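The 9 genes described here encode the coactivator PGC1β, the lipid sensor PPARγ and 7 proteins that take up, carry, store or oxidise fatty acids. They are Ppargc1b, Pparg, Cpt1a, Cpt2, Acadl, Acadvl, Cd36, Fabp4 and Plin2. They were chosen by name, and each symbol matched 1 identifier among the 41388 genes of the count tables. RNA-seq counts were read in 17 libraries of mouse myeloid cultures: 3 of Bap1flox and 3 of Bap1LysM bone marrow macrophages (BMMs), and 6 of Bap1flox and 5 of Bap1LysM osteoclast precursors (preOCs, labelled OC). BMMs were grown from marrow with M-CSF and received no RANKL, and preOCs were such cells after 24 h of RANKL at 100 ng/ml. All mice carry loxP-flanked Bap1, a deubiquitinase gene. Bap1LysM mice (Bap1ΔLysM in the study) carry in addition a Cre inserted in Lyz2, which encodes lysozyme M, so deletion is expected in myeloid cells that use that gene, and Bap1flox littermates lack Cre. The preOC libraries came from 20-week-old males, and the age of the BMM mice is not given in the sources used here. The comparisons ask what RANKL does to these genes, what loss of Bap1 does to them before and after RANKL, and whether the RANKL responses differ between genotypes.

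PGC1β does not bind DNA itself. It joins nuclear receptors such as PPARγ and the estrogen-related receptors and raises the transcription of genes for mitochondria and fuel oxidation, and osteoclasts, which are rich in mitochondria, are known to induce it as they form. PPARγ pairs with RXR at direct repeats of a short half-site, and Cd36, Fabp4 and Plin2 are textbook PPAR targets. Long-chain fatty acids enter mitochondria through the carnitine shuttle, in which CPT1A makes acylcarnitines at the outer membrane and CPT2 returns them to acyl-CoA at the inner membrane, and the acyl-CoA dehydrogenases ACADL and ACADVL then begin each turn of β-oxidation.

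In GRCm38, the assembly of the count tables, Ppargc1b lies on the minus strand of chromosome 18 (61298136 to 61400431), Pparg on the plus strand of chromosome 6 (115361221 to 115490401), Cpt1a on the plus strand of chromosome 19 (3323301 to 3385732) and Cpt2 on the minus strand of chromosome 4 (107903981 to 107923610). Acadl lies on the minus strand of chromosome 1 (66830839 to 66863277), Acadvl on the minus strand of chromosome 11 (70010183 to 70015411), Cd36 on the minus strand of chromosome 5 (17781690 to 17888959), Fabp4 on the minus strand of chromosome 3 (10204347 to 10208576) and Plin2 on the minus strand of chromosome 4 (86648386 to 86670060). All are protein-coding genes, and the counts cover their exons. Whether strand was used in counting is not given in the sources used here. The span of Acadvl crosses Dvl2 on the other strand, which was at 18.4 to 51.7 CPM, so the Acadvl values are less certain than those of the other members.

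Counts per library summed to between 37967542 and 61369441. Levels are given as CPM, counts scaled to a common library size by the TMM method of edgeR over all 17 libraries, and as RPKM (CPM per kilobase of exon) where genes are compared with each other. The lowest level of any member, 3.37 CPM for Ppargc1b in Bap1flox BMM 1, rests on 175 reads. The labels number the libraries but do not tie each to a mouse, so p-values measure only the spread between these libraries. Bap1 itself was at 70.8 to 88.2 CPM in Bap1flox preOCs and 58.8 to 81.9 CPM in Bap1LysM preOCs, and at 83.7 to 87.1 and 77.8 to 84.4 CPM in the BMMs. These are counts over the whole gene, in which reads from deleted exons are not separated. Lyz2, which the Cre insertion disrupts, was at 0.148% to 0.485% of the Bap1flox mean in 6 of the 8 Bap1LysM libraries, but at 45.7% in the library labelled Bap1LysM BMM 1 and 80.6% in the library labelled Bap1LysM preOC 1. Comparisons of the members that use these 2 libraries are therefore also given without them, in BMMs and in the interaction for some members only. File names take one form for numbers 1 to 3 and another for 4 to 6, 2 library sets in what follows, and mitochondrially encoded genes took 0.481% to 1.074% of counts in the first set and 2.364% to 5.264% in the second. All BMMs belong to the first set, so the RANKL comparisons use numbers 1 to 3 alone.

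The cultures carried the markers of their labels. The summed level of 13 osteoclast markers, among them Acp5 and Ctsk, was 349 to 589 CPM in BMMs and 6636 to 17371 CPM in preOCs. The sum of 8 macrophage markers, among them Csf1r and Adgre1, was 8870 to 12263 CPM in BMMs and 3657 to 5918 CPM in preOCs. Because several of the 9 genes are also known from fat cells, 9 adipocyte markers were read as well. Lipe was at 22.4 to 35.1 CPM, whereas Adipoq was at most 0.0892 CPM and Plin4 at most 2.41 CPM, and 7 or 8 of the 9 were under 1 CPM in every library of each group. Among 7 erythroid markers no sum reached 1 CPM.

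Promoter windows of 300 bases, from 250 before to 50 after the transcription start, were read from RefSeq (GRCm38.p6) for 7 of the 9 members, with 3 windows for Pparg. Windows of Ppargc1b and Fabp4 are not among them. The windows of Cpt1a and Acadvl are printed because these genes passed the genotype test in preOCs, and those of Cd36 and Plin2 because the levels of these genes over the 17 libraries followed Pparg (Pearson's r of log2 CPM 0.90 and 0.92, a description). Capitals mark the half-site AGGTCA, on either strand, and the repeat AGGTCANAGGTCA, on either strand, with up to 2 mismatches. The windows are chr19:3323051-3323350 (plus strand) for Cpt1a, chr11:70015379-70015678 (minus strand) for Acadvl, chr5:17835847-17836146 (minus strand, at a start inside the span of the gene) for Cd36 and chr4:86670010-86670309 (minus strand) for Plin2.
Cpt1a: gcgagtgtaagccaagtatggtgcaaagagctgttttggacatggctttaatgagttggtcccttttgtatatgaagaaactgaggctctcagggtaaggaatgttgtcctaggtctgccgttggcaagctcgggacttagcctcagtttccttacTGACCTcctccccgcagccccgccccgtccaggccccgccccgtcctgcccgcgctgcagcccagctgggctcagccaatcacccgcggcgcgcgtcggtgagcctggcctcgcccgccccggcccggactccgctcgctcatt
Acadvl: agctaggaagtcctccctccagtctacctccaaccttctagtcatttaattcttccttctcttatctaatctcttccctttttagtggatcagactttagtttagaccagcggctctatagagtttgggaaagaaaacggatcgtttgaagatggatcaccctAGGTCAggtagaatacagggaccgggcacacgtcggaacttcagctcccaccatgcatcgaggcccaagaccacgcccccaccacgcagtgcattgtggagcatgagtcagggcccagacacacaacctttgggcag
Cd36: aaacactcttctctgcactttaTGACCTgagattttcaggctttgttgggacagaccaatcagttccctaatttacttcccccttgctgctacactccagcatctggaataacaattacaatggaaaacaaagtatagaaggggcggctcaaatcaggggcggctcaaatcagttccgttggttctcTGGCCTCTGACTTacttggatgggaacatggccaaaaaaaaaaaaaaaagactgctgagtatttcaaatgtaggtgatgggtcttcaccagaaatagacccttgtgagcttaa
Plin2: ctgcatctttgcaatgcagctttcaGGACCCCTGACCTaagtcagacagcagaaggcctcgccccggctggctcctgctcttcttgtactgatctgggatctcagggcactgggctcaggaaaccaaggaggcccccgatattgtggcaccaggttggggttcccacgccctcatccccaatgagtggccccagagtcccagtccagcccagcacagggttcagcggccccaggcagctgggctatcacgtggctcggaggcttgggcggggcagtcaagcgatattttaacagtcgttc

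The half-site stood in 6 of the 9 windows, from 5 of the 7 members, and in 16.3% of 32851 RefSeq mouse windows of this length. It began 94 bases before the start in Cpt1a, 87 in Acadvl, 228 in Cd36 and 218 in Plin2, and 28 and 9 bases before 2 of the 3 Pparg starts. It was not in the windows of Cpt2 and Acadl. The repeat with up to 2 mismatches was in the Cd36 window, beginning 63 bases before the start, and in the Plin2 window, beginning 225 bases before the start, where it overlaps the half-site. Across all windows 3.86% held it, and 0.0396% held it without a mismatch, none of them a window of these 7 members. These are letter matches in 300-base windows.

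Per length of exon, Cd36 and Plin2 had the highest means of the 9 genes in BMMs and in Bap1flox preOCs. In Bap1flox BMMs, Cd36 was at 314 ± 10 RPKM and Plin2 at 153 ± 5.29 RPKM (SD, n = 3), followed by Cpt1a at 41.2 ± 10.3 and Acadl at 36.6 ± 1.19 RPKM, which did not differ beyond their spread. Fabp4 was at 19.1 ± 6.89 RPKM, and Acadvl, Cpt2 and Pparg followed at 11.4 ± 0.349, 10.5 ± 0.237 and 7.16 ± 1.30 RPKM. Ppargc1b was the least abundant there, at 0.952 ± 0.108 RPKM. In Bap1LysM BMMs the order of the means was the same, from 318 ± 140 RPKM for Cd36 to 1.13 ± 0.136 RPKM for Ppargc1b. Leaving out the library labelled Bap1LysM BMM 1, the Fabp4 mean went from 17.1 to 9.28 RPKM, below Cpt2 at 9.58 and Acadvl at 9.43 RPKM, with overlap. In Bap1flox preOCs Ppargc1b stood at 15.0 ± 2.58 RPKM (SD, n = 6), beside Cpt2 at 14.4 ± 2.39 and Acadvl at 13 ± 0.970 RPKM, and Pparg was the least abundant at 4.68 ± 0.984 RPKM. Cd36 and Plin2 overlapped in those preOCs, at 109 ± 63.9 and 118 ± 13.7 RPKM, above Acadl at 47.5 ± 10, Cpt1a at 23.9 ± 5.13 and Fabp4 at 19.9 ± 11.2 RPKM. In Bap1LysM preOCs (SD, n = 5) Plin2 stood at 98.8 ± 36.7 RPKM, Cd36 at 66.1 ± 54.9, Acadl at 50.6 ± 12.9 and Cpt1a at 37.3 ± 6.59 RPKM. Without the library labelled Bap1LysM preOC 1, where Cd36 was at 160 RPKM, the Cd36 mean of 42.6 ± 18.5 RPKM lay below that of Acadl at 53.2 ± 13.3 RPKM (SD, n = 4), with overlap. Over all 5 libraries, Ppargc1b was at 15.5 ± 4.39 RPKM and Pparg at 2.91 ± 1.28 RPKM.

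**Figure D1:**
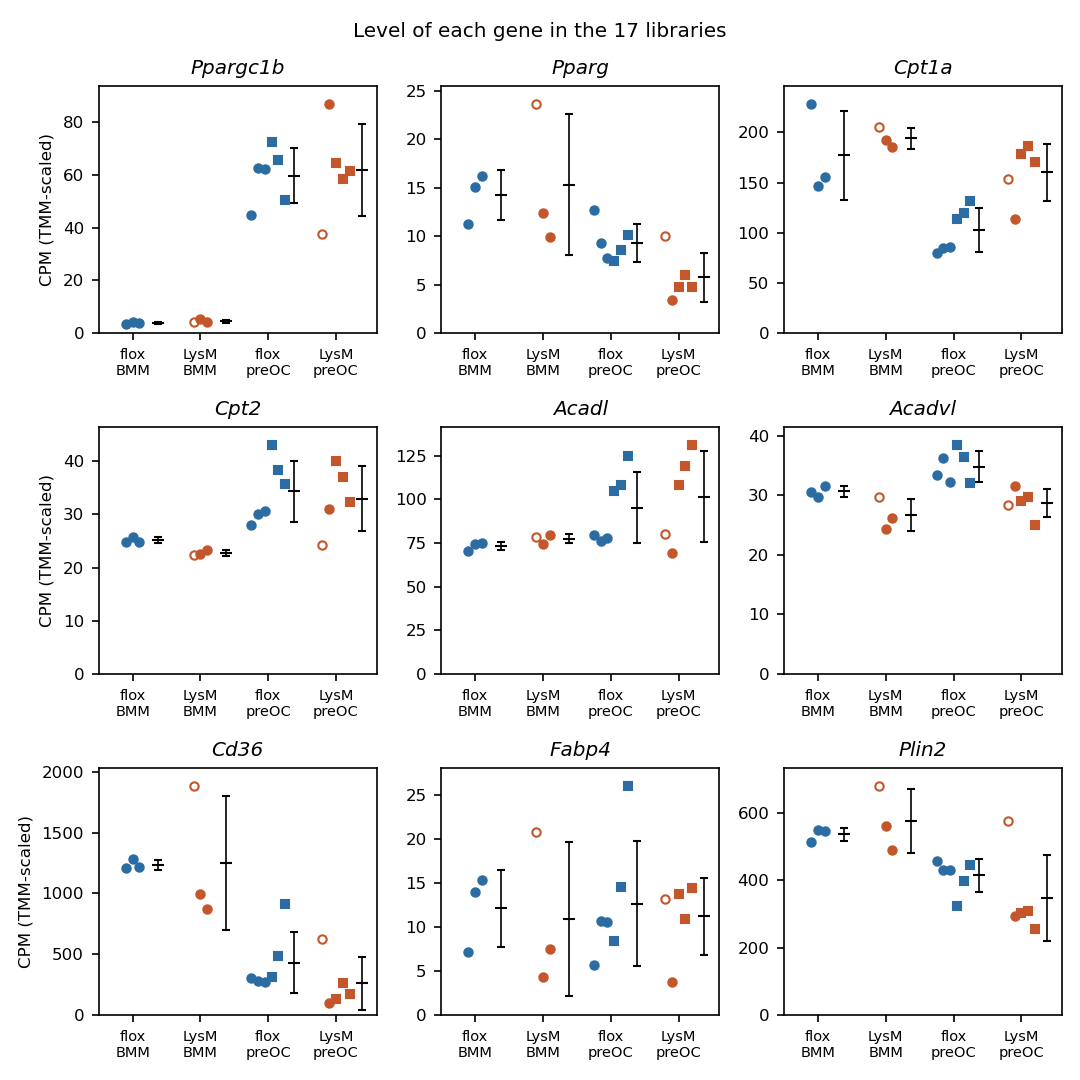
Each panel shows the TMM-scaled CPM of 1 gene in the 17 libraries, with Bap1flox in blue and Bap1LysM in orange, circles for numbers 1 to 3, squares for numbers 4 to 6, open circles for the 2 libraries labelled Bap1LysM number 1, and black bars for the group mean ± SD. Ppargc1b was under 5.2 CPM in all 6 BMM libraries and at 37.6 CPM or more in all 11 preOC libraries.

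RANKL raised the PGC1β gene strongly in both genotypes and lowered the fatty acid entry genes Cpt1a and Cd36. The other 6 members did not pass the test. In Bap1flox, 3 of the 9 members passed an adjusted p of 0.05 in edgeR, 1 higher and 2 lower in preOCs, where 58.1% of 13635 genes passed (29.4% higher and 28.7% lower). In Bap1LysM the same 3 members passed, against 38.9% of genes (21.2% higher and 17.7% lower). BMM and preOC levels did not overlap for 7 members in Bap1flox, against 70.9% of genes, and for 4 in Bap1LysM, against 55.5% of genes, so these counts are near the background of a broad response. Leaving out Bap1LysM preOC 1, alone or with Bap1LysM BMM 1, leaves 1 Bap1LysM preOC library, number 2, in the RANKL and interaction fits, and leaving out number 2 leaves number 1. The spread behind every standard error, adjusted p and call from those reduced fits comes from the other groups, and the lone library is assumed to vary as they do, so these Bap1LysM values are not replicated tests.

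Ppargc1b was at 3.37, 4.24 and 3.78 CPM in Bap1flox BMMs 1 to 3 and at 44.6, 62.6 and 62.3 CPM in Bap1flox preOCs 1 to 3. Every preOC value was far above every BMM value. The log2 fold change was 3.90 ± 0.30 (SE, edgeR adjusted p = 1.6e-05), or 14.9-fold. In Bap1LysM it was at 4.08, 5.13 and 4.36 CPM in BMMs 1 to 3 and at 37.6 and 86.8 CPM in preOCs 1 and 2, a log2 fold change of 3.78 ± 0.31 (SE, edgeR adjusted p = 5e-05), or 13.8-fold. Without the libraries labelled Bap1LysM number 1 the latter was 4.2, from 1 preOC library. The rise passed the test with each library left out in turn, between 3.82 and 4.04 in Bap1flox and between 3.06 and 4.26 in Bap1LysM. A larger share of osteoclast-forming cells and more Ppargc1b RNA per cell cannot be told apart in bulk libraries. Among preOCs, the 2 lowest Ppargc1b levels were in Bap1LysM preOC 1 (37.6 CPM) and Bap1flox preOC 1 (44.6 CPM), which also had the 2 lowest osteoclast marker sums, 6636 and 7141 CPM. Bap1LysM preOC 2 had the highest of both, 86.8 CPM and 17371 CPM. The part of that marker level in Ppargc1b was not tested.

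Pparg, its nuclear receptor partner, was at 11.3, 15.1 and 16.2 CPM in Bap1flox BMMs and at 12.7, 9.24 and 7.70 CPM in Bap1flox preOCs 1 to 3. These ranges overlapped, and the log2 fold change of -0.52 ± 0.41 (SE) had an adjusted p of 0.3 in edgeR. In Bap1LysM it was at 23.6, 12.4 and 9.92 CPM in BMMs and at 10 and 3.42 CPM in preOCs 1 and 2, with a log2 fold change of -1.18 ± 0.48 (SE, edgeR adjusted p = 0.078). In both states the higher values belonged to the libraries labelled Bap1LysM number 1. Without these, with preOC 2 alone against 2 BMMs, the change was -1.70. In the fit blocked on replicate number it was -1.33 (edgeR adjusted p = 0.027), where 5584 of 13635 genes passed. It did not pass by voomWithQualityWeights or with the Bap1LysM libraries alone. With each library left out in turn, the change ran from -2.16 to -0.60.

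Of the carnitine shuttle genes, Cpt1a, often taken as the step that sets the rate of fatty acid entry, fell. It was at 228, 147 and 156 CPM in Bap1flox BMMs and at 79.8, 84.4 and 85.5 CPM in preOCs 1 to 3, with no overlap. Its log2 fold change was -1.09 ± 0.17 (SE, edgeR adjusted p = 0.0004), or 2.12-fold lower. In Bap1LysM it was at 205, 192 and 185 CPM in BMMs and at 154 and 114 CPM in preOCs 1 and 2, a log2 fold change of -0.53 ± 0.19 (SE, edgeR adjusted p = 0.046), which passed the test in 3 of 11 fits with a library left out (Bap1flox BMM 1, Bap1flox BMM 2 or Bap1LysM preOC 1), with adjusted p from 0.0091 to 0.3. The call was also lost by voomWithQualityWeights (-0.54, adjusted p = 0.086) and with the Bap1LysM libraries alone (-0.53, edgeR adjusted p = 0.071). Without the libraries labelled Bap1LysM number 1 the change was -0.72 (adjusted p = 0.038), with preOC 2 as the lone Bap1LysM preOC library and the spread taken from the other groups. Cpt2, the inner-membrane enzyme, had a log2 fold change of 0.24 ± 0.10 (SE, edgeR adjusted p = 0.061) in Bap1flox and 0.28 ± 0.11 (SE, adjusted p = 0.064) in Bap1LysM in edgeR. Its levels went from between 24.8 and 25.8 CPM to between 28.1 and 30.7 CPM in Bap1flox, without overlap, and without the libraries labelled Bap1LysM number 1 the changes of 0.24 and 0.44 passed the test, where 8636 and 5980 of 13588 genes passed. The second of these rests on 1 preOC library (31.0 CPM), with the spread taken from the other groups.

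The acyl-CoA dehydrogenase genes were close to level across the RANKL step in numbers 1 to 3. Acadl had log2 fold changes of 0.09 in Bap1flox and -0.05 in Bap1LysM, and Acadvl of 0.15 and 0.16, with standard errors of 0.07 to 0.11 and adjusted p from 0.2 to 0.68 in edgeR. Acadl was at 70.7 to 75.0 CPM in Bap1flox BMMs and 76.2 to 79.5 CPM in Bap1flox preOCs 1 to 3. Acadvl was at 29.8 to 31.6 CPM and 32.2 to 36.3 CPM there. Neither pair of ranges overlapped, and neither difference passed the test. In Bap1LysM, leaving out both libraries labelled number 1 gave -0.15 for Acadl (adjusted p = 0.22) and 0.32 for Acadvl (adjusted p = 0.052) in edgeR, from 1 preOC library.

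Cd36, the fatty acid translocase and scavenger receptor of macrophages, fell the most of the 9. It was at 1208, 1280 and 1216 CPM in Bap1flox BMMs and at 308, 282 and 273 CPM in preOCs 1 to 3, a log2 fold change of -2.10 ± 0.54 (SE, edgeR adjusted p = 0.0075), or 4.28-fold lower. In Bap1LysM BMMs it was at 1881, 992 and 875 CPM and in preOCs 1 and 2 at 629 and 98.4 CPM, a log2 fold change of -1.78 ± 0.62 (SE, edgeR adjusted p = 0.044). The libraries labelled Bap1LysM number 1 held the highest value in both states. Without them preOC 2 stood alone against 2 BMMs, and the change was -3.24 ± 0.14 (SE, adjusted p = 6.7e-06, both with the spread of the other groups), or 9.45-fold lower. With each library left out in turn, the change ran from -3.66, without Bap1LysM preOC 1 and again from 1 preOC library, to -0.99. In the other 10 of these 11 fits it did not pass, with edgeR adjusted p from 0.052 to 0.12. The macrophage marker sum was also lower in every preOC library than in every BMM library, and its part in the fall of Cd36 was not tested. Sums of megakaryocyte and platelet markers (293 to 790 CPM in BMMs and 95.4 to 157 CPM in preOCs) and of B and plasma cell markers (65.7 to 131 and 9.40 to 83.7 CPM) had lower medians in preOCs in both genotypes. Dendritic sums in numbers 1 to 3 were higher in preOCs without overlap, at 24.4 to 32.9 against 41.3 to 66.9 CPM in Bap1flox and 13.1 to 65.9 against 100 and 140 CPM in Bap1LysM. So were endothelial sums, at 38 to 44.2 against 46.9 to 51.5 CPM in Bap1flox and 22.2 to 27 against 34.2 and 61.7 CPM in Bap1LysM. Of the 7 dendritic markers, 3 to 5 were under 1 CPM in every library of a group, as were 3 to 5 of the 8 endothelial markers. Itgb3 is on both the osteoclast and the megakaryocyte lists. The part of the cell types behind these sums in the member levels was not tested.

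Plin2, the coat protein of lipid droplets, was at 514, 548 and 545 CPM in Bap1flox BMMs and at 457, 429 and 430 CPM in preOCs 1 to 3, with no overlap and a log2 fold change of -0.29 ± 0.21 (SE, edgeR adjusted p = 0.27). In Bap1LysM it was at 678, 559 and 488 CPM in BMMs and at 574 and 295 CPM in preOCs 1 and 2, a log2 fold change of -0.40 (adjusted p = 0.21). Without the libraries labelled Bap1LysM number 1 the changes were -0.28 (adjusted p = 0.0089) in Bap1flox and -0.82 (adjusted p = 0.00074) in Bap1LysM, the latter from 1 preOC library with the spread of the other groups. Fabp4, a cytosolic fatty acid carrier, varied widely and did not pass the test. It ranged from 7.13 to 15.3 CPM in Bap1flox BMMs, 5.72 to 10.7 CPM in Bap1flox preOCs 1 to 3 and 4.28 to 20.8 CPM in Bap1LysM BMMs, and was at 13.2 and 3.81 CPM in Bap1LysM preOCs 1 and 2. Its log2 fold changes were -0.43 and -0.35 with standard errors of 0.60 and 0.68, and in Bap1LysM -0.63 ± 0.57 (SE, 1 preOC library) when both libraries labelled number 1 were left out.

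**Figure D2:**
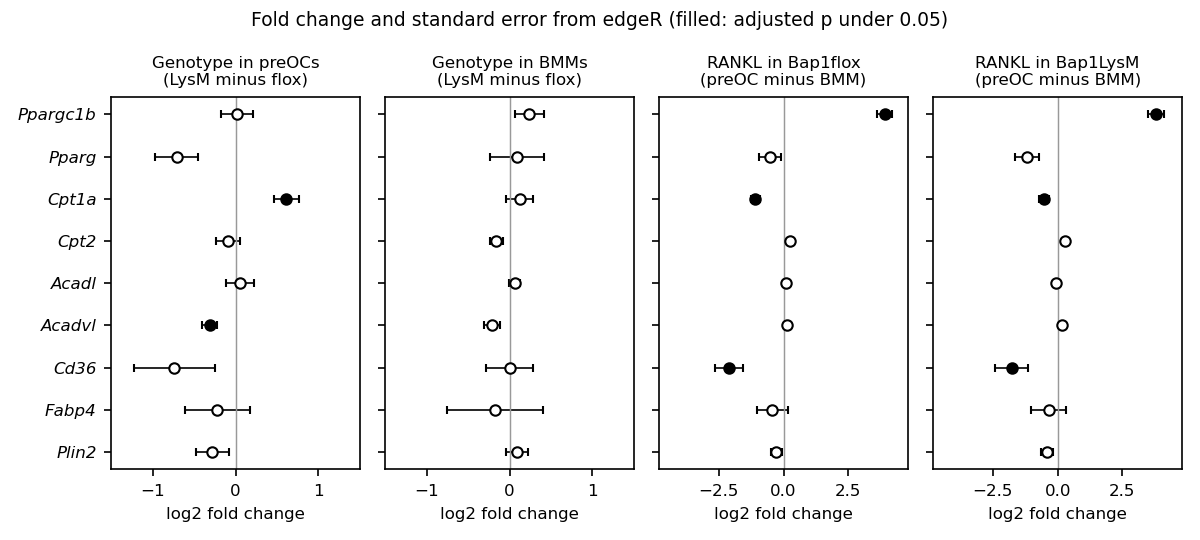
The panels show the log2 fold change of each gene with its standard error in the genotype and RANKL comparisons, filled where the adjusted p from edgeR was under 0.05, and the RANKL panels have a wider axis. Ppargc1b stood at 3.90 and 3.78 in the RANKL panels and at 0.02 for genotype in preOCs, where Cpt1a (0.61) and Acadvl (-0.31) are filled.

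After RANKL, Cpt1a was higher and Acadvl lower in Bap1LysM than in Bap1flox preOCs, whereas the difference in Ppargc1b was small beside its spread. Of the 9 members 2 passed the adjusted p in edgeR, 1 higher and 1 lower in Bap1LysM, against 15.8% of 12919 genes (7.12% higher and 8.67% lower). The higher calls made up 45.1% of the total, and 33.2% with upper-quartile factors in place of TMM. Only Acadvl had genotypes without overlap, against 9.48% of genes. Without the library labelled Bap1LysM preOC 1, whose Lyz2 level went against its label, 5 members passed: Cpt1a higher, and Acadvl, Pparg, Cd36 and Plin2 lower. In that fit 3072 of 12870 genes passed. The mitochondrially encoded share of counts was higher in Bap1LysM in each of the 5 same-numbered preOC pairs, at 1.021% and 1.074% against 0.481% to 1.019% in numbers 1 to 3, and at 3.383% to 5.264% against 2.364% to 3.639% in numbers 4 to 6. Its part in the genotype differences was not tested. The Bap1flox preOC libraries in this comparison include the 3 of the RANKL comparison, so the values of the 2 are not independent.

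Ppargc1b was at 44.6 to 72.6 CPM (median 62.5) in the 6 Bap1flox preOC libraries and at 37.6, 86.8, 64.6, 58.4 and 61.6 CPM in Bap1LysM preOCs 1, 2, 4, 5 and 6. The Bap1LysM values spanned those of Bap1flox. The log2 fold change was 0.02 ± 0.19 (SE, 95% interval -0.35 to 0.38, edgeR adjusted p = 0.97). It was 0.12 within numbers 1 to 3, -0.08 within numbers 4 to 6 and 0.15 ± 0.16 (SE) without the library labelled Bap1LysM preOC 1.

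Pparg was at 7.42 to 12.7 CPM (median 8.91) in Bap1flox preOCs and at 10, 3.42, 4.74, 5.99 and 4.71 CPM in Bap1LysM preOCs 1, 2, 4, 5 and 6. Bap1LysM preOC 1 lay within the Bap1flox range and the other 4 below it. Over all libraries the log2 fold change was -0.71 ± 0.26 (SE, edgeR adjusted p = 0.086). Without Bap1LysM preOC 1 it was -1.02 ± 0.20 (SE, adjusted p = 0.0042), or 2.03-fold lower. It also passed in the fit blocked on replicate number, at -0.83 (adjusted p = 0.011), where 4233 of 12919 genes passed. With a set term it was -0.69 (adjusted p = 0.046, 4345 of 12919 genes). Within numbers 4 to 6 it was -0.80 (adjusted p = 0.0071, 4282 of 12722 genes). The call was not made with RLE or upper-quartile factors, without the CPM filter, within numbers 1 to 3 or with all 17 libraries. With each library left out in turn, it passed in 1 of 11 fits, with changes from -1.02 to -0.58 (edgeR adjusted p from 0.0042 to 0.2).

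Cpt1a was at 79.8 to 132 CPM (median 100) in Bap1flox preOCs and at 154, 114, 178, 186 and 170 CPM in Bap1LysM preOCs 1, 2, 4, 5 and 6. All but Bap1LysM preOC 2 lay above every Bap1flox library. Its log2 fold change was 0.61 ± 0.15 (SE, edgeR adjusted p = 0.02), or 1.53-fold higher. Within numbers 4 to 6 the values were 114, 120 and 132 CPM against 178, 186 and 170 CPM, with no overlap and a change of 0.50 (adjusted p = 0.0028). Within numbers 1 to 3 they were 79.8, 84.4 and 85.5 CPM against 154 and 114 CPM, also with no overlap, and the change was 0.67 (adjusted p = 0.17). In numbers 1 to 3 alone no gene at all passed the adjusted p in edgeR (2337 did at an unadjusted p under 0.05). The call was lost without Bap1LysM preOC 4 (0.58, adjusted p = 0.058) or 5 (0.55, adjusted p = 0.061). Without the library labelled Bap1LysM preOC 1 it was 0.61 (adjusted p = 0.023).

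Cpt2 did not separate the genotypes, at 28.1 to 43.0 CPM (median 33.2) in Bap1flox and 24.2 to 40.1 CPM (median 32.3) in Bap1LysM preOCs, with a log2 fold change of -0.09 ± 0.14 (SE, 95% interval -0.36 to 0.17). Acadl was likewise at 76.2 to 125 CPM and 69.2 to 131 CPM, with a change of 0.05 ± 0.17 (SE, 95% interval -0.29 to 0.40). Leaving out the library labelled Bap1LysM preOC 1 gave -0.01 for Cpt2 and 0.12 for Acadl. Both genes were higher in the second library set in both genotypes. Acadl was at 76.2 to 79.5 CPM in Bap1flox preOCs 1 to 3 and 105 to 125 CPM in 4 to 6, and at 69.2 and 80.4 CPM against 108 to 131 CPM in Bap1LysM. Cpt2 was at 28.1 to 30.7 CPM in Bap1flox preOCs 1 to 3 and 35.7 to 43.0 CPM in 4 to 6, and at 24.2 and 31.0 CPM against 32.3 to 40.1 CPM in Bap1LysM. The mitochondrially encoded share moved the same way between the sets, and the sum of 9 stromal markers moved the other way in Bap1flox. Their part in these levels was not tested.

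Acadvl, the dehydrogenase of very long-chain acyl-CoA, was at 32.1 to 38.4 CPM (median 34.9) in Bap1flox preOCs and at 28.3, 31.5, 29.0, 29.8 and 25.0 CPM in Bap1LysM preOCs 1, 2, 4, 5 and 6. Every Bap1LysM value lay below every Bap1flox value. The log2 fold change was -0.31 ± 0.09 (SE, edgeR adjusted p = 0.033), or 1.24-fold lower. The estimate stayed between -0.36 and -0.26 with each library left out, but the adjusted p then ranged from 0.017 to 0.087, and the call held in 4 of the 11 fits. It was kept without the library labelled Bap1LysM preOC 1 (-0.32, adjusted p = 0.033), and lost without Bap1flox preOC 1, 2, 4 or 5 and without Bap1LysM preOC 4, 5 or 6. The change was -0.40 (adjusted p = 0.017) within numbers 4 to 6 and -0.20 (adjusted p = 0.38) within numbers 1 to 3.

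Cd36 and Plin2 were lower in 4 of the 5 Bap1LysM preOC libraries and highest or near the top in the library labelled Bap1LysM preOC 1. Cd36 was at 308, 282, 273, 309, 483 and 916 CPM in Bap1flox preOCs 1 to 6 and at 629, 98.4, 131, 266 and 174 CPM in Bap1LysM preOCs 1, 2, 4, 5 and 6. Leaving aside Bap1LysM preOC 1, the 2 ranges had no overlap. Its log2 fold change was -0.74 ± 0.49 (SE, edgeR adjusted p = 0.34) over all libraries, -1.40 ± 0.40 (SE, adjusted p = 0.028), or 2.64-fold lower, without that library, and -1.63 (adjusted p = 0.012) within numbers 4 to 6. Within numbers 1 to 3, where the library labelled Bap1LysM preOC 1 is 1 of 2 with that label, it was 0.33 ± 0.70 (SE).

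Plin2 was at 324 to 457 CPM (median 430) in Bap1flox preOCs and at 574, 295, 302, 308 and 255 CPM in Bap1LysM preOCs 1, 2, 4, 5 and 6. Bap1LysM preOC 1 was the highest of all 11 and the other 4 Bap1LysM libraries were below the Bap1flox range. The log2 fold change was -0.28 ± 0.20 (SE, edgeR adjusted p = 0.37) over all libraries, -0.56 ± 0.11 (SE, adjusted p = 0.0057) without that library and -0.48 (adjusted p = 0.022) within numbers 4 to 6. Fabp4 showed no such split. It was at 5.72 to 26.0 CPM in Bap1flox preOCs and 3.81 to 14.4 CPM in Bap1LysM preOCs, with a change of -0.22 ± 0.39 (SE, 95% interval -0.98 to 0.55) over all libraries and -0.29 ± 0.43 (SE) without Bap1LysM preOC 1.

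**Figure D3:**
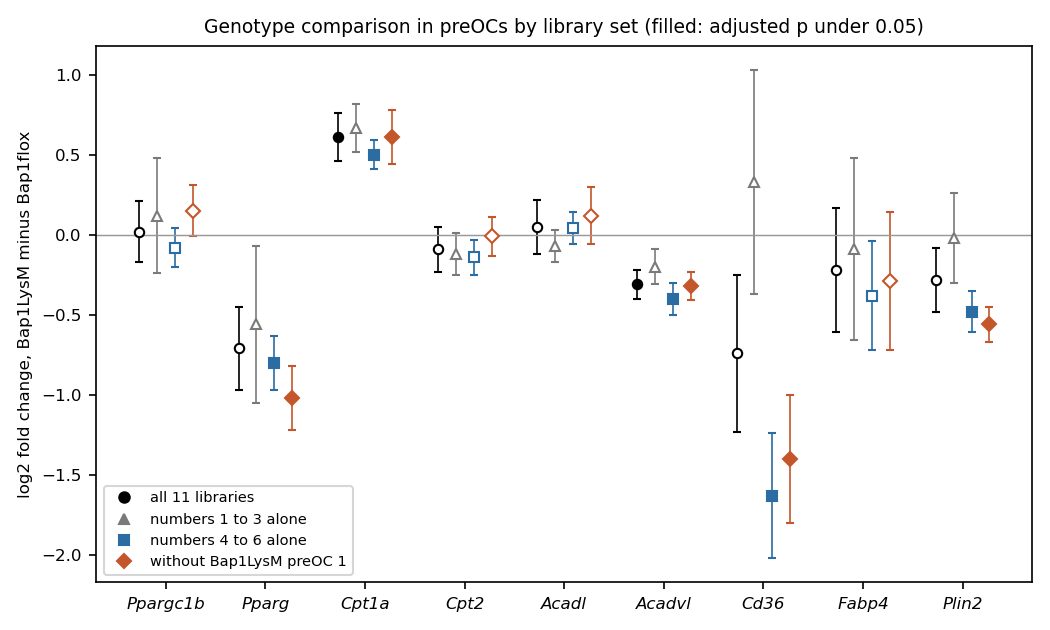
The log2 fold change of each gene between genotypes in preOCs is drawn with its standard error for all 11 libraries, for each library set and without Bap1LysM preOC 1, filled where the adjusted p from edgeR was under 0.05. Cpt1a stood between 0.50 and 0.67 in all 4 fits, whereas Cd36 ranged from -1.63 within numbers 4 to 6 to 0.33 within numbers 1 to 3.

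The difference of the genotype effect between the library sets was itself tested in edgeR. No member and no other of 12919 genes passed (0.0%; 1185 at an unadjusted p under 0.05, 0 by voomWithQualityWeights and 98 by DESeq2). For Cd36 the difference was -1.94 ± 0.85 (SE, unadjusted p = 0.044, adjusted p = 0.54), and -0.05 ± 0.60 (SE) without Bap1LysM preOC 1. For Cpt1a it was -0.16 ± 0.16 (SE).

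The summed markers of other cell types were read beside these results. The sum of 9 neutrophil markers was 64.0 to 186 CPM in Bap1flox and 176 to 626 CPM in Bap1LysM preOCs, with 1 of the 9 under 1 CPM in every library. The sum of 9 B and plasma cell markers was 9.40 to 21.6 CPM and 33.3 to 83.7 CPM, with 6 and 5 of the 9 under 1 CPM in every library. The macrophage sum was 3657 to 4855 CPM in Bap1flox and 3753 to 5918 CPM in Bap1LysM. As for Cpt1a, all Bap1LysM libraries but preOC 2 (3753 CPM) lay above every Bap1flox library. The stromal sum was 180 to 1933 CPM and 102 to 1254 CPM. In Bap1flox it differed by library set, at 1120 to 1933 CPM in numbers 1 to 3 and 180 to 318 CPM in 4 to 6. In Bap1LysM it was at 380 and 1254 CPM against 102 to 450 CPM, with overlap. Sums of endothelial (43.2 to 51.5 and 30 to 61.7 CPM), dendritic (41.3 to 179 and 100 to 162 CPM) and megakaryocyte markers (95.4 to 147 and 140 to 157 CPM) overlapped. For the endothelial sum the overlap came from Bap1LysM preOC 1 at 61.7 CPM, and the other 4 Bap1LysM libraries, at 30 to 34.2 CPM, lay below every Bap1flox library, as they did for Pparg, Cd36 and Plin2. Their part in the member levels was not tested. Of the adipocyte markers, those other than Lipe were under 1 CPM in every preOC library.

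Without RANKL, none of the 9 members passed the adjusted p between BMM genotypes, against 5.32% of 13028 genes (1.31% higher and 4.01% lower in Bap1LysM). None passed by voomWithQualityWeights or DESeq2 either, and none had an unadjusted p under 0.05 in edgeR. Blocked on replicate number, 2107 of all genes passed in place of 693, and still no member. The count over all genes also rested on single libraries, with 7 without Bap1flox BMM 2, 4 without Bap1flox BMM 3, 84 without Bap1LysM BMM 2, 298 without Bap1flox BMM 1 and 369 without Bap1LysM BMM 1. Genotypes did not overlap for 2 members, Cpt2 and Acadvl, against 34.0% of genes. Cpt2 was at 24.8, 25.8 and 24.9 CPM in Bap1flox and 22.3, 22.5 and 23.3 CPM in Bap1LysM BMMs (log2 fold change -0.16 ± 0.08 SE, edgeR adjusted p = 0.25). Acadvl was at 30.6, 29.8 and 31.6 CPM and at 29.7, 24.4 and 26.2 CPM (log2 fold change -0.21 ± 0.10 SE, edgeR adjusted p = 0.23). The remaining members overlapped, with log2 fold changes from -0.18 for Fabp4 to 0.24 for Ppargc1b. The library labelled Bap1LysM BMM 1 had the highest Pparg (23.6 CPM), Cd36 (1881 CPM), Fabp4 (20.8 CPM) and Plin2 (678 CPM) of the 6 BMM libraries. Without it the changes were -0.37 for Pparg, -0.42 for Cd36, -1.05 for Fabp4, -0.05 for Plin2, -0.15 for Cpt2 and -0.29 for Acadvl, none past the adjusted p. Some marker sums also separated the BMM genotypes. Osteoclast sums were 349 to 377 CPM in Bap1flox and 421 to 589 CPM in Bap1LysM. Endothelial sums were 38 to 44.2 and 22.2 to 27 CPM, and megakaryocyte sums 491 to 790 and 293 to 384 CPM. Sums of the other marker lists overlapped. Their part in the BMM levels was not tested.

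The RANKL responses were then compared between genotypes in a single model with an interaction term. No member passed, nor did any of 13635 genes (0.0%; 1718 at an unadjusted p under 0.05, 0 by voomWithQualityWeights and 113 by DESeq2, no member among them). The interaction of Cpt1a was 0.56 ± 0.25 (SE, unadjusted p = 0.047, edgeR adjusted p = 0.39), that of Pparg -0.66 ± 0.62 (SE) and that of Ppargc1b -0.12 ± 0.41 (SE, 95% interval -0.91 to 0.68). With each library left out in turn, the Pparg interaction ran from -1.64 to -0.08, that of Cpt1a from 0.33 to 0.75 and that of Ppargc1b from -0.84 to 0.37. When both libraries labelled Bap1LysM number 1 were left out, these were -1.18 ± 0.41 (SE, adjusted p = 0.25), 0.37 ± 0.27 (SE) and 0.30 ± 0.27 (SE), with 1 Bap1LysM preOC library. The Cd36 interaction was 0.32 ± 0.78 (SE), and -1.14 ± 0.15 (SE, adjusted p = 0.091) without the libraries labelled Bap1LysM number 1, where the Bap1LysM preOC value is 1 library and the standard error comes from the other groups.

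Other genes of the same pathways were read from 4 lists that do not include the members. Among 33 genes of mitochondrial β-oxidation and the carnitine shuttle, RANKL in Bap1flox raised 12 and lowered 4 of 31 tested, with a median log2 fold change of 0.16 against -0.03 over all genes, of which 29.4% rose and 28.7% fell. Acsl1, which activates long-chain fatty acids to acyl-CoA, rose from 39.3 ± 2.12 to 247 ± 16.3 CPM (SD, n = 3 each, log2 fold change 2.65, edgeR adjusted p = 2.3e-07). The thiolase gene Acaa2 rose by 0.87 and Acad10 by 0.88, while Crat, carnitine acetyltransferase, fell by 0.68, Acsl3 by 0.66 and Acadsb by 0.60. In Bap1LysM 7 rose and 3 fell (median 0.27, all genes 0.01), where 21.2% of all genes rose and 17.7% fell. Acsl1 (2.22), Acad10 (1.15) and Eci1 (1.01) rose there, and Crat (-0.69), Acsl3 (-0.64) and Hadh (-0.34) fell. Without the libraries labelled Bap1LysM number 1, 15 rose and 3 fell (median 0.51) where 5980 of 13588 genes passed, and Acsl3 was at -0.36 with an adjusted p of 0.24. This fit, and the list values below without those libraries, hold 1 Bap1LysM preOC library (number 2) and take the spread from the other groups. List values without number 2, which would leave number 1 alone, are not given here. The Bap1LysM list counts and medians may therefore rest on single libraries. By voomWithQualityWeights the adjusted p in Bap1LysM was 0.16 for Acsl3 and 0.098 for Hadh.

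Of the 21 tested genes of peroxisomal fatty acid oxidation, 1 rose and 11 fell in Bap1flox (median -0.44), where 29.4% of all genes rose and 28.7% fell with a median of -0.03. In Bap1LysM 2 rose and 9 fell (median -0.28), where 21.2% of all genes rose and 17.7% fell with a median of 0.01, and 2 rose and 10 fell (median -0.40) when both libraries labelled number 1 were left out. Abcd2, a peroxisomal importer of fatty acyl-CoA, fell from 28.5 ± 9.24 to 2.25 ± 0.0682 CPM in Bap1flox (SD, n = 3 each, log2 fold change -3.66, edgeR adjusted p = 1.6e-05) and by 2.66 in Bap1LysM, or by 3.27 without those 2 libraries. Acox3 fell by 1.70 and 1.01 and Hacl1 by 1.33 and 1.78, whereas Amacr, a racemase for branched-chain fatty acids, rose by 1.49 and 1.68. Acaa1a rose by 0.32 in Bap1LysM, with an adjusted p of 0.14 by voomWithQualityWeights.

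Genes for PPAR partners and PGC1 co-regulators moved in both directions, 9 up and 10 down of 25 tested in Bap1flox (median -0.06) and 7 up and 6 down in Bap1LysM (median 0.10), beside the same shares of all genes. Leaving out both libraries labelled Bap1LysM number 1 gave 8 up and 5 down in Bap1LysM (median 0.16). Pprc1, the third member of the PGC1 family, rose from 42.4 ± 5.14 to 112 ± 3.00 CPM in Bap1flox (SD, n = 3 each, log2 fold change 1.4, edgeR adjusted p = 4.6e-05) and by 0.98 in Bap1LysM. Nr1h3, which encodes the oxysterol receptor LXRα, rose by 2.54 and 2.77 and Perm1 by 2.08 and 2.34. Rxra, the partner of PPARγ, fell by 1.96 and 1.29, Lpin1 by 1.94 and 1.01, Ppard by 1.43 in Bap1flox and Ncoa1 by 0.68 in Bap1LysM. In Bap1LysM, Rxra was at -2.03 and Nr1h3 at 1.99 without the library labelled Bap1LysM preOC 1, and Rxra at -1.97, Nr1h3 at 2.77 and Perm1 at 2.99 without both libraries of that number. These rest on Bap1LysM preOC 2 alone and are not replicated tests. Of 30 tested genes of fatty acid uptake and lipid droplets, 8 rose and 12 fell in Bap1flox (median -0.36) and 5 rose and 7 fell in Bap1LysM (median -0.11). The Bap1LysM median was -0.29 without both libraries labelled number 1. By voomWithQualityWeights, where 2934 of 13635 genes passed, 2 rose and 4 fell in Bap1LysM (median -0.04). Abcg1 (1.87 and 1.69) and Hilpda, an inhibitor of lipolysis (1.76 and 1.79), rose in both, as did Got2 (0.85) in Bap1flox and Vldlr (0.88) in Bap1LysM. Fabp3 (-1.65 and -2.16) and Pdk4, an inhibitor of pyruvate dehydrogenase (-1.53 and -2.35), fell in both, Plin4 (-1.60) fell in Bap1flox and Hsd17b11 (-0.88) in Bap1LysM. Leaving out both libraries labelled number 1 moved Abcg1 in Bap1LysM to 2.68, Hilpda to 2.32 and Fabp3 to -2.78. In Bap1LysM the adjusted p of Pdk4 was 0.38 by voomWithQualityWeights and 0.094 without Bap1LysM preOC 1, and that of Vldlr was 0.068 by voomWithQualityWeights.

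Between the preOC genotypes, where 15.8% of all genes passed against 58.1% and 38.9% under RANKL, fewer list genes passed too. In mitochondrial β-oxidation 0 rose and 2 fell of 30 tested, with a median of -0.03 against -0.01 over all genes. Hadh, which acts after the acyl-CoA dehydrogenases, was at 58.7 ± 6.53 CPM in Bap1flox (SD, n = 6) and 38.3 ± 4.71 CPM in Bap1LysM preOCs (SD, n = 5), a log2 fold change of -0.65 (edgeR adjusted p = 0.002), and the thioesterase gene Acot2 was lower by 0.51. Without Bap1LysM preOC 1, in a fit where 3072 of 12870 genes passed, 6 rose and 2 fell. Of 21 peroxisomal genes 1 rose (Acox3, 0.45) and 3 fell, and 4 fell and 0 rose without that library, where Acox3 was at 0.36 with an adjusted p of 0.064. Ehhadh, the peroxisomal bifunctional enzyme, was at 2.57 ± 0.379 and 0.609 ± 0.377 CPM (SD, n = 6 and 5, log2 fold change -2.09, edgeR adjusted p = 0.0028), Pex11a was lower by 1.42 and Hacl1 by 1.12. Of 25 co-regulator genes 5 rose and 0 fell (median 0.19), led by Rxra (66.5 ± 9.65 to 140 ± 42.1 CPM, log2 fold change 1.04, edgeR adjusted p = 0.0048), Lpin1 (0.77) and Ncoa2 (0.61), and 6 rose and 0 fell without Bap1LysM preOC 1. With each library left out in turn, 3 to 6 co-regulator genes rose and 0 fell, where 1067 to 3072 of all genes passed. Of 29 uptake and droplet genes 3 rose and 0 fell: Vldlr, a lipoprotein receptor, at 9.86 ± 1.51 and 48.9 ± 18.8 CPM (log2 fold change 2.26, edgeR adjusted p = 0.00039), Fabp3 (1.18) and the cholesterol exporter gene Abca1 (0.86). In the fit without Bap1LysM preOC 1, with its 3072 calls over all genes, 5 of the 29 rose and 4 fell. By voomWithQualityWeights, where 7093 of 12919 genes passed, 12 mitochondrial genes rose and 5 fell (median 0.09), 4 peroxisomal genes rose and 6 fell, 11 co-regulator genes rose and 1 fell, and 7 uptake and droplet genes rose and 11 fell. Without Bap1LysM preOC 1 and with a set term, where 5025 of 12870 genes passed, the counts in that order were 13 and 3, 2 and 8, 11 and 0, and 6 and 12. Blocked on replicate number, where 4233 of 12919 genes passed, they were 3 and 4, 0 and 5, 10 and 0, and 6 and 7.

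In BMMs 0 of 31 mitochondrial and 0 of 25 co-regulator genes passed between genotypes (10 and 7 at an unadjusted p under 0.05 in edgeR, with 3 higher and 2 lower, and 1 each way, by voomWithQualityWeights and 3 higher and 4 lower, and 2 higher and 3 lower, by DESeq2), 3 of 21 peroxisomal genes fell and 1 of 30 uptake and droplet genes rose, beside 5.32% of all genes that passed. The 3 were Ehhadh (-1.80), Abcd2 (-1.39) and Hacl1 (-0.86), and Vldlr rose from 5.63 ± 0.749 to 15.7 ± 3.65 CPM (SD, n = 3 each, log2 fold change 1.47, edgeR adjusted p = 0.019). None of the 3 peroxisomal calls was left without Bap1flox BMM 2, Bap1flox BMM 3 or Bap1LysM BMM 2, and 0 uptake and droplet genes passed without Bap1flox BMM 2 or 3. Few genes of any kind passed in those fits. They were 7 of 12842 without Bap1flox BMM 2, 4 of 12845 without Bap1flox BMM 3 and 84 of 12947 without Bap1LysM BMM 2. Without the library labelled Bap1LysM BMM 1, 2 peroxisomal genes fell and 2 uptake and droplet genes rose, where 369 of 12974 genes passed. Over all 13028 genes, 1772 passed by voomWithQualityWeights and 2065 by DESeq2. List medians were -0.14 (mitochondrial), 0.10 (co-regulator), -0.11 (peroxisomal) and -0.16 (uptake and droplet), against -0.01 over all genes.

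**Figure D4:**
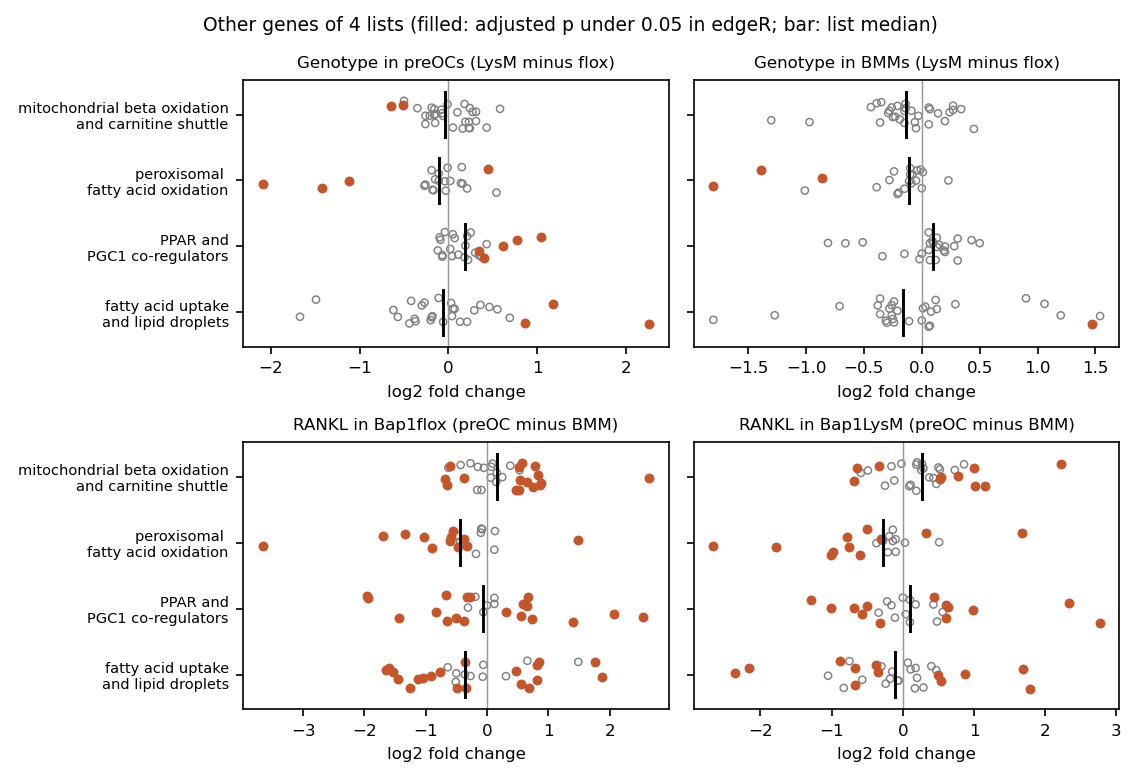
Every point is a tested gene of 1 of the 4 lists, placed by its log2 fold change in each comparison, filled where the adjusted p from edgeR was under 0.05, with a bar at the list median. Under RANKL the medians in Bap1flox and Bap1LysM stood at -0.44 and -0.28 (peroxisomal) and at 0.16 and 0.27 (mitochondrial). The Bap1LysM values rest on 2 preOC libraries.

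Within groups, part of the covariation of the members rested on the libraries labelled Bap1LysM number 1. After the group means were removed, Pearson's r of log2 CPM over the 17 libraries was 0.81 between Pparg and Plin2, 0.74 between Pparg and Cd36 and 0.70 between Cd36 and Plin2, whereas Ppargc1b stood at -0.76 with Pparg, -0.73 with Plin2 and -0.71 with Cd36. Cpt1a stood at 0.76 with Acadl and 0.66 was reached between Cpt2 and Acadl. Over the 15 libraries left without that number, r was 0.55 between Pparg and Plin2, 0.45 between Pparg and Cd36 and 0.17 between Cd36 and Plin2, and Ppargc1b stood at -0.63 with Pparg, -0.36 with Plin2 and -0.44 with Cd36. Cpt1a and Acadl remained at 0.79 and Cpt2 and Acadl at 0.62, and Acadl stood at 0.79 with Cd36, against 0.31 over all 17. These values are descriptions, since the points share replicate number and library set. Of 13806 genes compared, those whose level over the 17 libraries was most like Ppargc1b were Fam102a and C730036E19Rik (r = 0.996 each). Pcp4l1 (0.945) was most like Pparg, Frs2 (0.978) and Tut7 (0.976) most like Cpt1a, and Rpl29 (0.970) and Mrpl34 (0.967) most like Cpt2. Vamp4 (0.978) and Stk3 (0.973) were most like Acadl, Sarm1 (0.904) and Pmm1 (0.898) most like Acadvl, and Lhfpl2 (0.973) and Lrrc27 (0.969) most like Cd36. Clec7a (0.807) and Mtus2 (0.789) were most like Fabp4, and Rab7b and Rsad2 (0.957 each) most like Plin2.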

How the data were processed

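RNA was poly-A selected, and the authors sequenced the libraries as paired reads of 150 bases, aligned them with STAR 2.5.1a to GRCm38 (Ensembl release 76) and counted reads per gene with featureCounts 1.4.6-p5. The deposited tables hold 1 library each, with counts, CPM and RPKM per gene. The CPM and RPKM that the authors deposited equal the counts divided by the library total, and by gene length, and were used only for checks of the tables. Every test used the deposited counts.

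Genes were matched to symbols for 40340 of 41388 identifiers, and 355 rRNA genes were left out. CPM and RPKM printed here use library totals scaled by TMM over all 17 libraries. Genes above 1 CPM (on unscaled totals) in at least 4 of the 11 preOC libraries, 2 of the 6 BMM libraries or 2 of the 11 libraries numbered 1 to 3 were tested, and all 9 members passed in each fit. edgeR 4.0.16 (quasi-likelihood test, Benjamini-Hochberg adjustment over all tested genes, threshold 0.05) gave the main results. The genotype fits held the libraries of 1 state each, and the RANKL and interaction fits the libraries numbered 1 to 3 of all 4 groups, so the comparisons share control libraries. Intervals are 1.96 standard errors to either side and are approximate. Alternatives were the study's test, voomWithQualityWeights of limma 3.58.1, as well as DESeq2 1.42.0, RLE and upper-quartile factors, no CPM filter, a replicate block, the library set as a term or each set alone, all 17 libraries, and each library left out. The test of the difference between library sets, and the fit without Bap1LysM preOC 1 with a set term, and the correlations without the libraries labelled Bap1LysM number 1, were chosen after seeing the data. The members and lists were chosen with earlier results of these data known. In each list, the genes named are those that passed the test with the largest log2 fold change, up to 3 in each direction. The genes named as most like a member are the 2 with the highest Pearson correlation, of which 1 is not reported here.

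Deviations from the group means of libraries with the same number correlated at 0.34 to 0.69 between preOC genotypes and 0.30 to 0.49 between BMM genotypes. Between BMMs and preOCs they correlated at 0.22 to 0.47. The numbers were used as pairs only in the fits blocked on replicate number, and no main fit held a replicate term. The labels do not say what a number stands for. Over all preOC libraries the deviations also carry the difference between the library sets. Within preOC numbers 4 to 6 the correlations were -0.15 to 0.01. Pairing by number is therefore not established.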

Additional observations from a re-analysis of the deposited data

Results flagged for a closer look

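Cd36 in the library labelled Bap1flox preOC 6 stood at 916 CPM, against 273 to 483 CPM in the other 5 Bap1flox preOC libraries, and was picked out because its gap to the nearest of them was large for the range of the group. Without it the log2 fold change of Cd36 between preOC genotypes was -0.37. Plin2 in the library labelled Bap1LysM preOC 1 stood at 574 CPM, against 255 to 308 CPM in the other 4 Bap1LysM preOC libraries, and was picked out in the same way. Both came from 18 groups of values, each a member in a preOC group, looked at for an outlying library, and chance alone marks about 1 group in 20.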

How the results depend on the processing

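Of 873 member values under an alternative, 749 kept their direction and side of the threshold, 33 lost the call, 37 gained one and 54 changed sign, none of the last with an adjusted p under 0.05. Between preOC genotypes, where 2 members passed, 5 passed by voomWithQualityWeights (7093 of 12919 genes) and in numbers 4 to 6 alone (4282 of 12722). Likewise 5 passed without Bap1LysM preOC 1 with a set term (5025 of 12870). Without the CPM filter 1 passed (1595 of 26264 genes), and in numbers 1 to 3 alone 0 (0 of 13120 genes). With each library left out 0 to 5 passed, beside 1067 to 3072 of all genes. In the RANKL response of Bap1flox, where 3 passed, 7 passed by voomWithQualityWeights (10389 of 13635 genes), and 5 with that genotype alone (8663 of 13412 genes) or without both libraries labelled Bap1LysM number 1 (8636 of 13588 genes). In that of Bap1LysM, where 3 passed, 6 passed with all 17 libraries (6815 of 13806 genes) or without those 2 libraries (5980 of 13588 genes, with 1 Bap1LysM preOC library and the spread of the other groups), 1 with that genotype alone, and 1 to 6 with each library left out.

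Signs changed in preOCs for Ppargc1b (voomWithQualityWeights -0.04, upper-quartile factors -0.04, numbers 4 to 6 -0.08, libraries left out -0.15 to 0.15), Cpt2 (voomWithQualityWeights 0.08), Acadl (set term -0.01, numbers 1 to 3 -0.07, without Bap1LysM preOC 1 with a set term -0.03, libraries left out -0.04 to 0.16), Cd36 (numbers 1 to 3 0.33) and Fabp4 (voomWithQualityWeights 0.07, libraries left out -0.37 to 0.12). In BMMs they changed for Pparg (voomWithQualityWeights -0.23, libraries left out -0.37 to 0.33), Fabp4 (-1.05 to 0.20) and Plin2 (-0.05 to 0.20), while Cd36, at 0.00 over all libraries, lay at -0.42 to 0.21, and in the RANKL response of Bap1LysM for Acadl (-0.16 to 0.06) and Fabp4 (-1.5 to 0.53). In the interaction they changed for Ppargc1b (0.30 without both libraries labelled Bap1LysM number 1, -0.84 to 0.37), Cpt2 (-0.14 to 0.22), Acadvl (upper-quartile factors -0.03, all libraries -0.08, -0.07 to 0.09), Cd36 (voomWithQualityWeights -0.07, all libraries -0.72, without both -1.14, -1.56 to 1.11), Fabp4 (all libraries -0.06, without both -0.20, -1.08 to 0.96) and Plin2 (-0.67 to 0.28). The difference between library sets changed sign without Bap1LysM preOC 1 for Pparg (0.76), Cpt1a (0.07), Fabp4 (0.89) and Plin2 (0.12), and under other tools for Cpt2 (0.05 and 0.01) and Fabp4 (0.47). The cause was not tested.

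The replicate block added the Pparg calls (-0.83 in preOCs and -1.33 for RANKL in Bap1LysM) and changed no other call of a member. Over all genes it gave 4233 calls in place of 2040 in preOCs and 2107 in place of 693 in BMMs, where voomWithQualityWeights gave 1772 in BMMs, DESeq2 2065 in BMMs, and the set term 4345 in preOCs. All 17 libraries together gave 4527 in preOCs, 1991 in BMMs and 1443 in the interaction (0 in the fit reported), and numbers 1 to 3 alone gave 0 in preOCs. With each library left out the counts were 1067 (without Bap1LysM preOC 4) to 3072 (without Bap1LysM preOC 1) in preOCs and 4 to 756 in BMMs. Without Bap1LysM preOC 2 the interaction gave 119 and the RANKL response of Bap1LysM 3145. For RANKL in Bap1LysM, voomWithQualityWeights called 2934 genes and that genotype alone 2550 in place of 5307. Of the BMM calls, 24.7% were higher in Bap1LysM, against 40.7% by voomWithQualityWeights and 42.6% by DESeq2. Scaling by RLE or upper-quartile factors moved the median of all genes by no more than 0.06. With 2 Bap1LysM preOC libraries in numbers 1 to 3, 1 of which goes against its label in Lyz2, the RANKL response of Bap1LysM and the interaction rest on few libraries.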
